A study of Gallus gallus with 6 samples.

Results

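The genes described here are 8 genes of the chicken W chromosome, HINTW, SPIN1L, UBE2R2L, LOC374195, LOC430910, HNRNPKL, LOC107049459 and LOC431003, out of 13009 genes named on the array. They were taken by gene symbol, with every probe set that carries one of these symbols, which gave 15 of 38382 probe sets (a probe set is a group of short probes for 1 transcript). They were chosen by their low measured levels at 72 hrs after gentamicin against the controls, so the differences of the 72 hr arrays are a description and carry no test. RNA came from the basal part of the basilar papilla (BP), the hearing epithelium of birds, and was hybridized to an Affymetrix chicken array. All chicks were wild type and 12 to 16 days old. There were 3 groups of 2 arrays: untreated controls of the same age, chicks at 48 hrs and chicks at 72 hrs after gentamicin, an aminoglycoside that kills hair cells (HCs). Each array held pooled RNA named as a biological replicate, and the sex of the chicks is not given in the labels. Replicates are numbered 1 and 2 here as in the array titles, although in the source names both control arrays and both 48 hr arrays carry the number 2.

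In birds the female is the sex with unlike sex chromosomes. Hens carry 1 W and 1 Z chromosome and cocks carry a pair of Z chromosomes, so a W gene can be transcribed only in hens. The W chromosome descends from the same ancestral chromosome as Z, and most of its remaining genes are broadly expressed regulators that kept a related copy on Z, the gametolog, called the Z partner here. Birds have no chromosome-wide silencing of Z like that of the X chromosome in mammals, and many Z genes have more RNA in cocks than in hens.

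All 8 genes are protein coding and lie on W in the RefSeq annotation of the assembly GRCg7b, which was used only for names and places in the gene order because the build behind the array is not given in the sources used here. UBE2R2L, HINTW, LOC374195, SPIN1L, LOC431003, LOC107049459 and LOC430910 follow each other in that order on W with other genes between them. The span of HINTW overlaps that of another gene, LOC100857579, and the span of HNRNPKL holds the microRNA gene MIR7B. In all, 17 of the 170 W genes of that annotation had a probe set. Of the chosen genes, 4 had 1 probe set each, HINTW and UBE2R2L had 2, LOC374195 had 3 and HNRNPKL had 4.

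The arrays were alike in overall brightness, with median intensities from 26.5 to 30.2. Of 9 measured supporting cell genes, 8 had a mean level over the median of all probe sets, and FGF20 (3.14 to 4.64) did not. On the log2 scale TECTB (tectorin beta) lay between 13.11 and 13.39 and GJB6 (a gap junction protein) between 13.46 and 13.58. HES5 (8.03 to 9.78) and SOX2 (6.82 to 8.34) varied more. HC genes were present as well, OTOF (otoferlin) between 7.55 and 9.70, whereas ATOH1, the HC fate factor, was at 2.70 to 3.69. The difference between the 3′ and the 5′ probe sets of GAPDH, a sign of RNA length, ran from 2.05 to 4.97 and was widest on 48 hr replicate 2 and 72 hr replicate 2. The log2 of the summed intensity of 6 connective tissue marker genes was 11.51 on control replicate 1 against 8.76 to 9.60 on the other 5 arrays. COL1A1 (9.93), DCN (10.09) and LUM (9.04) were highest on control replicate 1. COL1A2 (6.42), COL3A1 (7.74) and POSTN (4.33) were not, and POSTN was lowest there. The lists covered HCs, supporting cells, erythroid cells, leukocytes, connective tissue, and neurons and glia. Sums of the erythroid, HC and leukocyte lists were higher on replicate 1 in each group, and those of the other lists were not. The erythroid sum was 10.13 and 8.06 in the controls, 9.01 and 8.06 at 48 hrs, and 9.57 and 8.04 at 72 hrs. CA2 of that list was higher on replicate 2 in the controls and at 72 hrs. In limma after Benjamini-Hochberg adjustment, 0 of the 35 measured genes of all lists passed at either time. Of all probe sets, 0% passed at 48 hrs, and at 72 hrs 0.0417% passed as lower and 0.0469% as higher. The log2 fold changes of the 35 genes ran from -2.83 (NCF4) to 0.53 (MBP) at 48 hrs. At 72 hrs they ran from -2.74 (NCF4) to 0.88 (TMC2). The part of these differences in the W results was not tested.

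W probe sets were mostly brighter than the array median on the control and 48 hr arrays and mostly dimmer than it at 72 hrs. All 15 probe sets had both 72 hr values under all 4 values of the control and 48 hr arrays, compared with 4.99% of all probe sets. On the linear scale, the median probe set stood at 94.8% and 105% of its control mean in the controls. It stood at 45.6% and 126% at 48 hrs, and at 1.88% and 2.86% at 72 hrs. The 2 arrays at 72 hrs were therefore both low, while the 2 arrays at 48 hrs lay on opposite sides of the controls. Because each array is a pool, a smaller share of cells with a transcript and less of it per cell cannot be told apart. The share of hens in a pool and the time after gentamicin cannot be told apart either, since neither labels nor design separate them.

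**Figure D1:**
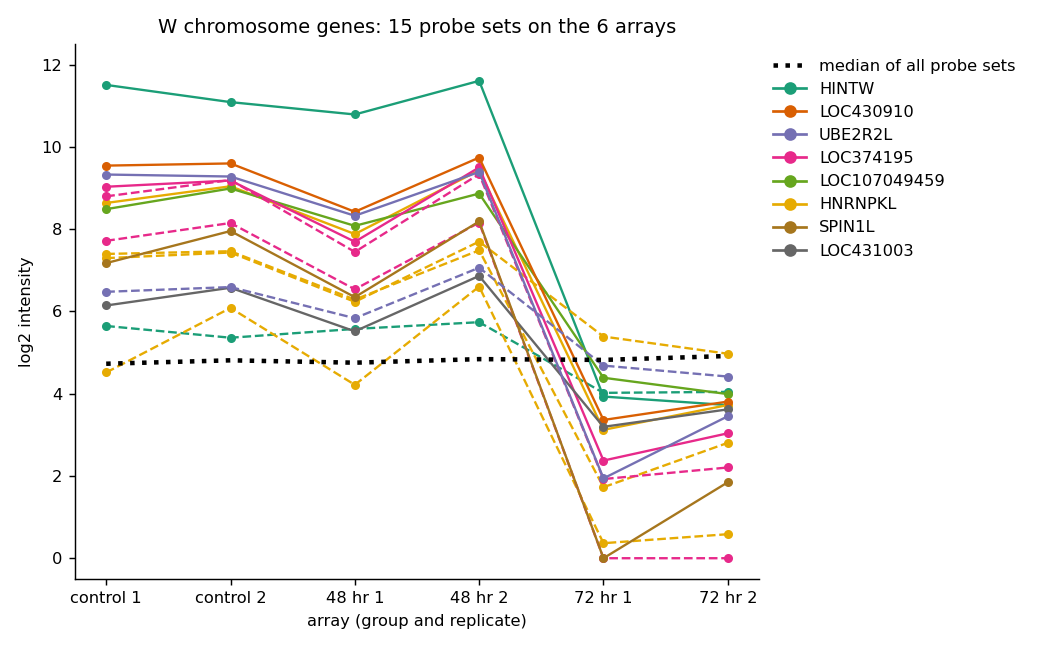
Log2 intensity (y axis) of the 15 W probe sets on the 6 arrays (x axis), with 1 line per probe set, solid for the brightest probe set of a gene and dashed for its others, coloured by gene; the black dotted line is the median of all probe sets. All 15 lines are lowest at 72 hrs, and 14 of them lie under the array median on both 72 hr arrays.

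HINTW codes for a W-specific relative of the histidine triad nucleotide-binding proteins and exists in many copies on W. Its bright probe set read 11.51 and 11.09 log2 units in the controls, 10.79 and 11.60 at 48 hrs, and 3.93 and 3.72 at 72 hrs. It was among the brightest probe sets of the array in the controls, with 98.6% and 97.8% of all probe sets dimmer, and had 33.2% and 26.0% dimmer at 72 hrs. Both 72 hr values lay far below the other 4, with a log2 fold change of -7.47 (SE 0.31, n = 2 arrays per group) against the controls. The second HINTW probe set was much dimmer, at 5.65 and 5.36 in the controls, 5.57 and 5.74 at 48 hrs, and 4.02 and 4.04 at 72 hrs. The 2 probe sets were each lowest on the 72 hr arrays and ended at a similar dim level there, so their fold changes are not compared.

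LOC374195, listed with the synonym CHD1W, is the W copy of the chromodomain helicase CHD1, a chromatin remodeler whose W and Z copies are used to sex birds from DNA. Its brightest probe set was at 9.03 and 9.18 in the controls, 7.69 and 9.50 at 48 hrs, and 2.37 and 3.04 at 72 hrs. Its second probe set was at 8.80 and 9.19, then 7.45 and 9.34, then 1.92 and 2.21. The third was at 7.72 and 8.15, then 6.54 and 8.16, and was listed at exactly 0.00 on both 72 hr arrays, the lowest value that the files hold. The log2 fold changes at 72 hrs were -6.40, -6.93 and -7.93, and in all 3 probe sets 48 hr replicate 1 lay under both controls and 48 hr replicate 2 over both.

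SPIN1L is the W copy of spindlin, a reader of methylated histone H3. Its levels were 7.17 and 7.95 in the controls, 6.35 and 8.19 at 48 hrs, and 0.00 and 1.85 at 72 hrs. The 72 hr replicates both lay far below every other array (log2 fold change -6.64, SE 0.76). The value of 0.00 is again the lowest in the files, so the size of this difference is imprecise.

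UBE2R2L is related to UBE2R2, a ubiquitin-conjugating enzyme that works with cullin ligases. Its bright probe set read 9.33 and 9.28 in the controls, 8.32 and 9.39 at 48 hrs, and 1.94 and 3.45 at 72 hrs. The controls lay close together (SD 0.03) and the 72 hr values did not overlap them (log2 fold change -6.61, SE 0.53). The dimmer probe set read 6.48 and 6.59, then 5.83 and 7.06, then 4.68 and 4.42. Both 72 hr values of the dimmer probe set were again under all 4 others.

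LOC431003 is annotated as KCMF1-like, after an E3 ubiquitin ligase. Its single probe set was at 6.14 and 6.57 in the controls, 5.52 and 6.86 at 48 hrs, and 3.19 and 3.62 at 72 hrs. Its 72 hr values did not overlap the others (log2 fold change -2.95, SE 0.49). In the controls 68.3% and 72.4% of all probe sets were dimmer, and at 72 hrs 19.6% and 24.2% were.

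HNRNPKL is the W relative of HNRNPK, an RNA-binding protein of nuclear ribonucleoprotein particles, and its 4 probe sets did not move alike. The brightest was at 8.64 and 9.04 in the controls, 7.88 and 9.43 at 48 hrs, and 3.12 and 3.72 at 72 hrs. A second read 7.40 and 7.46, then 6.29 and 7.48, then 1.73 and 2.80. The dimmest varied most between replicates, at 4.51 and 6.08, then 4.22 and 6.60, then 0.37 and 0.58. The fourth, whose identifier marks probes shared by several transcripts, stayed brighter at 72 hrs. It read 7.29 and 7.43 in the controls, 6.23 and 7.70 at 48 hrs, and 5.39 and 4.97 at 72 hrs, which was 25.4% and 19.0% of its control mean. It was the only probe set of the 15 above the array median on the 72 hr arrays.

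LOC430910 is annotated as a relative of BTF3, a basal transcription factor and subunit of the complex that binds newly made proteins. Its levels were 9.54 and 9.60 in the controls, 8.42 and 9.74 at 48 hrs, and 3.36 and 3.81 at 72 hrs. The controls agreed closely (SD 0.04) and both 72 hr arrays lay far below them (log2 fold change -5.99, SE 0.42).

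The probe set of LOC107049459 is named TXNL1, a thioredoxin-like protein, in the study's own annotation. It read 8.49 and 8.99 in the controls, 8.08 and 8.86 at 48 hrs, and 4.39 and 3.99 at 72 hrs, a log2 fold change of -4.55 (SE 0.35). Both 72 hr values were under all 4 others.

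Across the 15 probe sets, the log2 fold change at 72 hrs ran from -7.93 to -1.47 with a median of -5.42, beside a median of 0.04 over all probe sets. In limma, 10 of the 15 (of 7 genes) passed an adjusted p of 0.05 in the lower direction, where 0.0417% of all probe sets did, but this contrast chose the genes and the count is given without a reading. The count was 0 with a floor of 32, 0 without a variance trend, 6 when only these 2 groups were fitted, 0 without either control array and 1 without either 72 hr array. The members nearest to that threshold were SPIN1L on its inner side and LOC431003 on its outer side. All 15 were lower by more than 0.6 log2 units, the fold limit of the study, as were 9.16% of all probe sets and 3.87% of those with a mean log2 intensity over 5. Against 48 hrs, which uses the same 72 hr arrays, 9 probe sets of 6 genes passed in the lower direction (0.0287% of all), and the median difference was -5.23.

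To see what a level without transcript looks like on these arrays, the 687 probe sets for viral transcripts were used. The chicks were assumed to carry none of these viruses. Their 95th percentile was 4.47 and 4.78 on the 72 hr arrays. Of the 15 W probe sets, 13 and 14 lay under it on the 2 arrays, compared with 1 and 0 on the control arrays. The share of all probe sets under that percentile was not counted. On the linear scale, 14 of 15 had an intensity under 32 on both 72 hr arrays and 0 of 15 on both control arrays. Of all probe sets, taken per array, 52.9% (replicate 1) and 51.7% (replicate 2) were under 32 at 72 hrs. In the controls these shares were 54.4% and 53.4%. Low 72 hr levels chose the W genes, so their 72 hr counts are only a description. Most W probe sets thus lay within the range of the viral ones at 72 hrs, and the fold changes above rest on dim values. The viral medians were lower, at 2.78 and 3.03. Of the brightest probe sets per gene, those of HINTW, LOC430910, LOC107049459, HNRNPKL and LOC431003 lay above the viral median on both 72 hr arrays. SPIN1L lay under it on both, and LOC374195 and UBE2R2L on replicate 1 only.

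**Figure D2:**
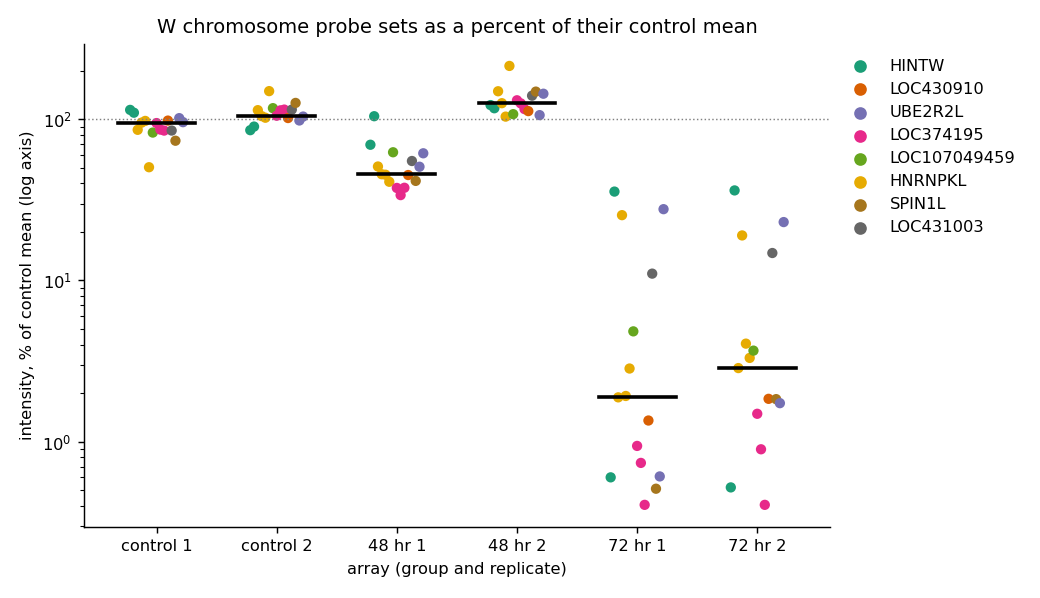
Intensity of the 15 W probe sets as a percent of their control mean (y axis, log scale) on each array (x axis), with 1 point per probe set coloured by gene, the median as a black bar, and the control mean as a dotted line at 100. The medians are 45.6% and 126% at 48 hrs, and 1.88% and 2.86% at 72 hrs, where 4 probe sets stay above 10%.

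At 48 hrs no W probe set passed the test against the controls, and the 2 arrays lay apart from each other. The median log2 fold change against the controls was -0.30 (range -0.60 to 0.15), 13 of 15 probe sets were below 0, and the median over all probe sets was 0.02. The share of all probe sets below 0 was not counted. No W probe set passed limma (0 of 15, and 0% of all probe sets), 0 of 15 had an unadjusted p under 0.05 where 1039 of all probe sets (2.71%) did, and the adjusted p was 1 for each of the 15. The fold limit of 0.6 was passed by 1 of 15 in the lower direction, beside 8.75% of all. This comparison shares its control arrays with the one that chose the genes.

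The mean at 48 hrs joins unlike arrays. Replicate 1 was under replicate 2 in 15 of 15 probe sets, by a median of -1.35 log2 units (range -2.39 to -0.16), and by more than 0.6 in 14 of 15, compared with 19.5% of all probe sets and 8.65% of those with a mean over 5. The value of 48 hr replicate 1 was the lowest of the control and 48 hr arrays in 14 of 15 (24.5% of all), the exception being the dim HINTW probe set. The value of 48 hr replicate 2 was above both controls in 14 of 15 (37.3% of all). These counts were not tested, because 2 arrays of 1 group have no replicate of their own.

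By gene, with the brightest probe set, 48 hr replicate 1 held 37.5% of the control mean for LOC374195, 41.5% for SPIN1L, 45.1% for LOC430910, 50.8% for UBE2R2L and 50.9% for HNRNPKL. It held 55.1% for LOC431003, 62.4% for LOC107049459 and 69.5% for HINTW. On 48 hr replicate 2 the same 8 values ran from 106% for UBE2R2L to 149% for HNRNPKL. All 8 genes were therefore lower on replicate 1 and higher on replicate 2 than the control mean. Over all 15 probe sets, the SE of the difference of the group means was 0.31 to 0.84, beside log2 fold changes of -0.60 to 0.15. The controls differed less, with replicate 2 over replicate 1 in 12 of 15 (53.5% of all) and a median difference of 0.15.

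The difference between the 3′ and the 5′ probe sets of GAPDH was 2.05 and 4.58 on the 72 hr arrays, where W levels were low on both. At 48 hrs it was wider on replicate 2, at 4.97, and W levels were higher on replicate 2. Its part in the W levels was not tested.

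The Z partners, which were not used to choose the W genes, had slightly higher values at 72 hrs. HINT2 (with the synonym HINTZ), SPIN1, UBE2R2, CHD1, BTF3, HNRNPK and TXNL1 had a probe set, whereas none carried the symbol KCMF1. At 72 hrs 7 of 7 had a log2 fold change above 0, from 0.05 to 0.58. The share of all probe sets above 0 was not counted. The median of the 7 was 0.42, beside 0.04 over all probe sets. In 5 of 7 both 72 hr values were over both controls (17.2% of all probe sets, 14.9% of those with a mean over 5). HINT2, the lowest of the 7, lay on the other side of 0 with equal array medians (-0.0513), without control replicate 2 (-0.0320) and without 72 hr replicate 1 (-0.130). None of these passed limma, with 0 of 7 called (0.0469% of all probe sets were called higher) and adjusted p values of 0.996 to 1.

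SPIN1 was at 10.63 and 10.93 in the controls, 11.14 and 11.05 at 48 hrs, and 11.22 and 11.50 at 72 hrs. All 4 treated arrays lay above both controls, while SPIN1L lay between 0.00 and 1.85 at 72 hrs. UBE2R2 was at 9.72 and 9.68, then 10.37 and 10.12, then 10.49 and 10.07, also without overlap with the controls. TXNL1 was at 10.79 and 11.07, then 11.29 and 10.86, then 11.38 and 11.45, and was above both controls at 72 hrs only.

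BTF3 was at 8.74 and 9.24 in the controls, 9.12 and 9.18 at 48 hrs, and 9.48 and 9.34 at 72 hrs. HNRNPK was at 11.22 and 11.34, then 11.51 and 11.28, then 11.69 and 11.48. Both were above their controls at 72 hrs, by 0.42 and 0.30. CHD1 was at 8.87 and 9.09, then 9.20 and 9.07, then 9.04 and 9.32, and HINT2 was at 11.18 and 11.02, then 11.35 and 10.71, then 11.32 and 10.97. Their 72 hr values overlapped the controls.

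**Figure D3:**
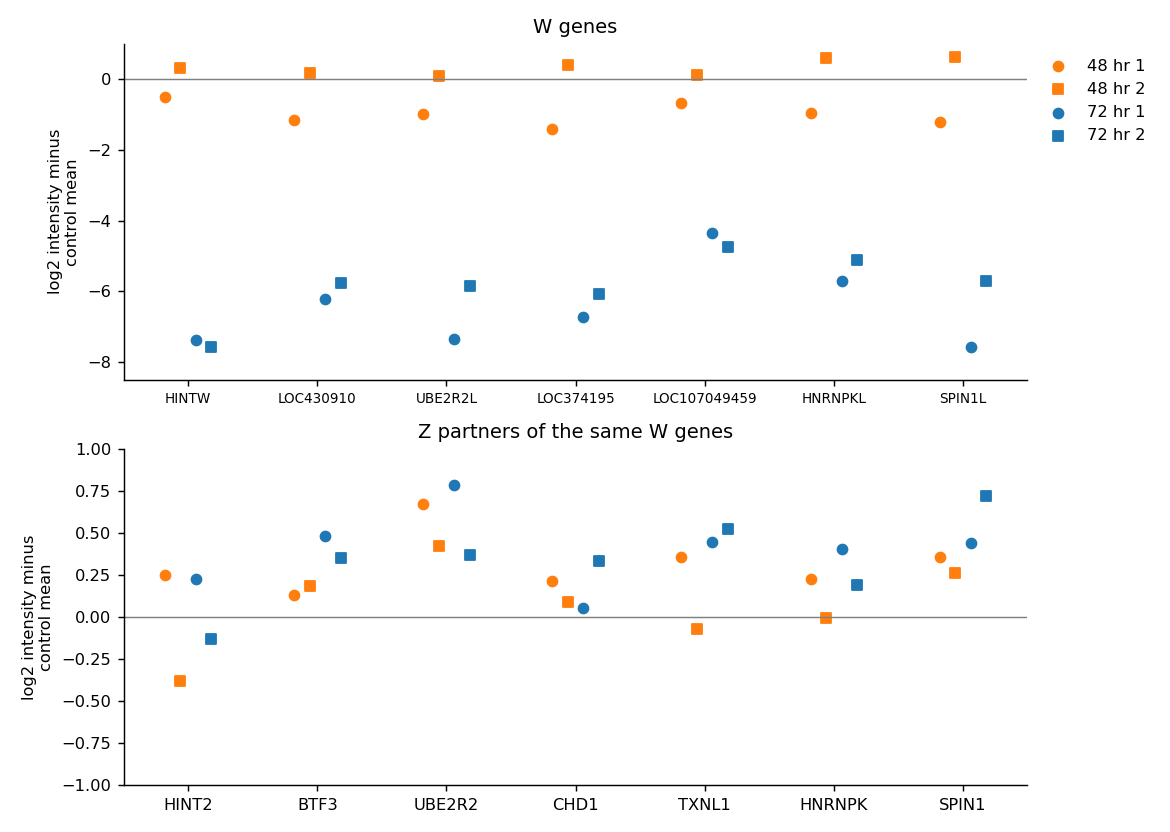
Log2 intensity minus the control mean (y axes) on the 48 hr arrays (orange) and 72 hr arrays (blue), replicate 1 as circles and replicate 2 as squares, for 7 W genes (top) and their Z partners in the same order (bottom); the y axes differ in range. The W genes lie between -4.35 and -7.57 at 72 hrs, and the Z partners between -0.13 and 0.79.

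The list of Z genes with a relative on W held 20 genes with a probe set. Their median log2 fold change was 0.32 at 72 hrs, with 18 of 20 above 0 and 14 of 20 with both 72 hr values over both controls (17.2% of all probe sets, 14.9% of those with a mean over 5). It was 0.14 at 48 hrs, with 13 of 20 above 0 and 5 of 20 non-overlapping (16.0% of all probe sets). All Z probe sets brighter than the median had a median log2 fold change of 0.30 at 72 hrs and 0.05 at 48 hrs. Over all probe sets the medians were 0.04 and 0.02. In limma 0 of 20 passed at either time, while 8 of 20 at 72 hrs and 1 of 20 at 48 hrs had an unadjusted p under 0.05 (3.65% and 2.71% of all probe sets). Between the 2 arrays at 48 hrs, replicate 1 was higher by a median of 0.20 in the 20 genes. The median was 0.23 over the brighter Z probe sets and 0.02 over those of other chromosomes. The shares of all probe sets above 0 and of all probe sets higher on replicate 1 were not counted. Of the 20 genes 16 were higher on replicate 1, BTF3 not among them, and without those shares the counts carry no reading.

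The levels of the whole Z chromosome were also set beside those of the chosen W genes. Among probe sets brighter than the median, the 638 of Z had a median deviation from the control mean of -0.05 and 0.05 on the control arrays, 0.15 and -0.05 at 48 hrs, and 0.33 and 0.25 at 72 hrs. The 13929 probe sets of other chromosomes stayed between -0.03 and 0.03 on all 6 arrays. The chosen W genes deviated by a median of -0.08 and 0.08 in the controls, -1.08 and 0.33 at 48 hrs, and -5.72 and -5.11 at 72 hrs. The 3 arrays with the lowest W levels, both at 72 hrs and 48 hr replicate 1, were the 3 with the highest Z levels. The highest W and the lowest Z level were on 48 hr replicate 2, the latter close to that of control replicate 1. For the Z partners the lowest median was on control replicate 1 (-0.10), with 0.04 on 48 hr replicate 2. Between the controls, W and Z medians were both higher on replicate 2. The order of the arrays is given as a description of 6 arrays that fall into separate clusters, so no correlation was computed.

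**Figure D4:**
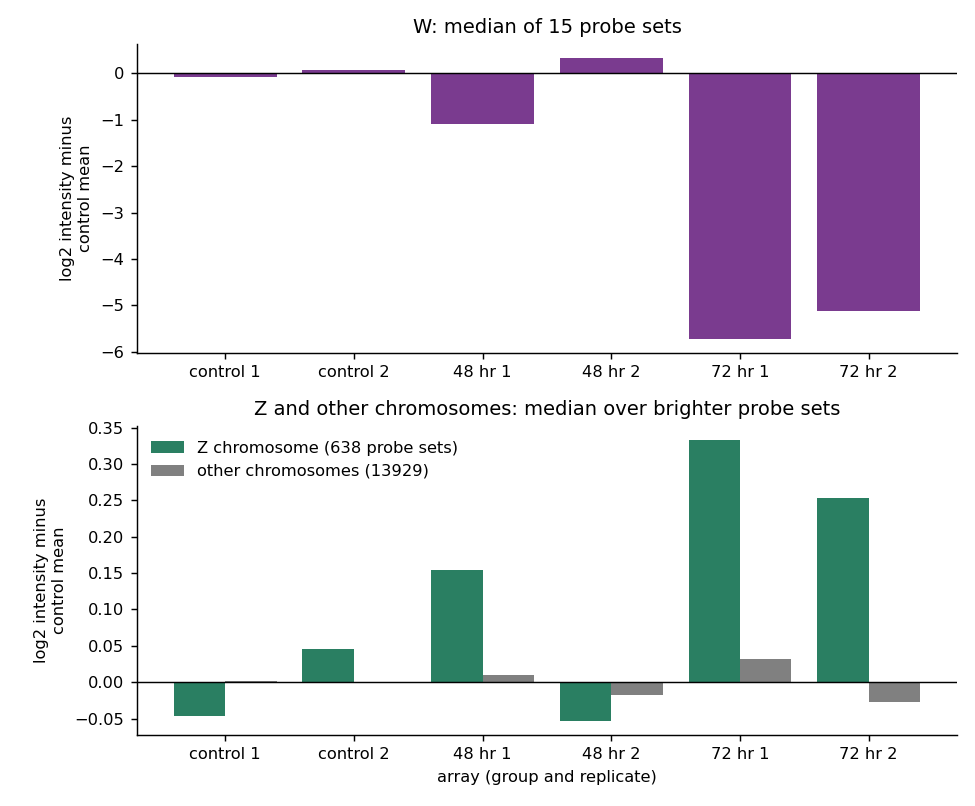
Median log2 intensity minus the control mean (y axes) on each array (x axis) for the 15 W probe sets (top, purple) and for brighter probe sets of Z (bottom, green, 638) and of other chromosomes (bottom, grey, 13929); the y axes differ in range. The W probe sets, which were chosen by low 72 hr levels, are lowest and Z is highest on the 72 hr arrays (-5.72 and -5.11 against 0.33 and 0.25). Next comes 48 hr replicate 1 (-1.08 against 0.15).

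The annotation placed 9 further W genes on the array, with 24 probe sets. At 72 hrs 8 of 24 were lower by more than 0.6 (9.16% of all, 3.87% of those with a mean over 5). These 8 were all dim, with mean log2 levels of 2.25 to 4.52, beside a median of 4.76 over all probe sets. No probe set of these genes over that median was lower by more than 0.6. For UBAP2L2 and NEDD4L, 1 probe set each was higher by more than 0.6. Over the 24 the median log2 fold change was -0.34. In limma 7 of 24 had an unadjusted p under 0.05 in either direction (3.65% of all). Lower among them were probe sets of LOC426615 (log2 fold changes -4.30 and -2.04), LOC427010 (-2.10) and UBAP2L2 (-3.52), while other probe sets of these genes were not among them. Those of NEDD4L (0.45 and 0.82) and another of UBAP2L2 (1.76) were higher. After adjustment limma called 0 of 24. LOC426615, listed as MIER3-like, came closest: its brightest probe set read 5.73 and 6.58 in the controls, 4.90 and 6.16 at 48 hrs, and 1.61 and 2.12 at 72 hrs (log2 fold change -4.30, adjusted p from limma 0.0647). Its 48 hr replicate 1 was again the lowest of the control and 48 hr arrays.

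UBAP2L2 was mixed. One UBAP2L2 probe set went from 5.21 and 5.49 in the controls to 0.77 and 2.90 at 72 hrs, and another from 6.15 and 6.16 to 6.73 and 9.11. All probe sets of LOC427010 (ZFR-like) had log2 fold changes below 0 at 72 hrs, at -2.10, -0.66 and -0.59. The brightest of them went from 4.43 and 4.86 to 2.65 and 2.44. NEDD4L, a ubiquitin ligase gene that the annotation also places on W, was not lower at all, with log2 fold changes of 0.03 to 0.82 over its 5 probe sets, and MBD2, a methyl-DNA-binding protein gene, was at 0.14. The brightest NEDD4L probe set read 10.96 and 11.01 in the controls and 11.09 and 11.51 at 72 hrs. The dimmest of the 5 read 3.70 and 3.47 in the controls and 3.99 and 3.24 at 72 hrs, near the dim end of the array throughout. MBD2 read 8.39 and 7.92 in the controls and 8.17 and 8.42 at 72 hrs. Why NEDD4L and MBD2 differed from the chosen W genes was not tested, and the build behind the array is not given.

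Of the 16 probe sets that limma called lower at 72 hrs, 10 were those of the chosen W genes and 6 carried no gene symbol. This contrast chose the W genes, so their share of the called probe sets carries no reading. In 5 of these 6 the value of 48 hr replicate 1 was the lowest of the control and 48 hr arrays (24.5% of all probe sets), as in 14 of the 15 W probe sets. In identifier, 2 of the 6 share their first part with the LOC107049459 probe set. The brighter of these read 6.83 and 7.52 in the controls, 6.18 and 7.63 at 48 hrs, and 1.94 and 2.51 at 72 hrs. The sixth probe set had another pattern, with 8.50 and 8.41 in the controls, 5.77 and 5.71 at 48 hrs, and 5.69 and 5.59 at 72 hrs.

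The profile of the bright HINTW probe set over the 6 arrays was used to rank other probe sets by Pearson correlation, as a description in which the 2 arrays at 72 hrs carry most of the weight. The other probe sets of the chosen W genes had correlations of 0.92 to 0.99. These genes were chosen by their low 72 hr levels, so their high correlations carry no reading. The named genes outside the list with the highest values were MAP4 (0.99), CACUL1, AMMECR1L, C3H1ORF115 and LOC101747780, whose levels spanned only 0.23 to 0.80 log2 units over the arrays. None of these 5 passed limma at 72 hrs (adjusted p 0.996 for each). Among the 20 most similar probe sets over that median that spanned over 1 log2 unit, 11 were of the chosen W genes. Of the others, 8 had no gene symbol and 1 was TRPT1. The median filter left out dim probe sets, such as the brightest of the W gene LOC426615 (mean 4.52). The count therefore does not cover them.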

How the data were processed

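Chick BP RNA was measured on 6 arrays in 3 groups of 2 pools, so any p value reflects variation among pools rather than chicks. The deposited values are intensities on a linear scale made by the authors: MAS5 (version not given) is named in the submitters' processing notes and dChip in the methods, and which of these made the values is not stated. They were transformed to log2 without further normalization, a floor or a pseudocount. All columns had a sample (0 without). After 153 control probe sets were left out, 38382 remained. The number of arrays limits the precision, and between 51.7% and 54.4% of values lay under 32. With 2 arrays against 2, an exact permutation test cannot go below p = 0.333, so a linear model over all probe sets was used.

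R 4.3.3 and limma 3.58.1 served for a model of the 3 groups (functions lmFit and eBayes, trended variance). Residual degrees of freedom were 3 and prior ones 4.75. P values of the 38382 probe sets were adjusted together by Benjamini-Hochberg, with a threshold of 0.05. Percent values use linear intensities. Python 3.11.15, pandas 2.3.3, numpy 2.4.6 and matplotlib 3.10.9 were used.

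The W genes, the lists and the tests were chosen with earlier results of these data known. Named are all probe sets of the 8 genes, their Z partners by the brightest probe set, and any other Z partner or W gene that passed limma. Also named are the 5 probe sets most correlated with HINTW, among those with a symbol and a mean over the median of all. Some markers of the cell type lists are named too. The other W genes and the unnamed probe sets given with values were chosen after their values were seen, as was HINT2 as the partner of HINTW, since HINT1 had no probe set. Of the probe sets, 177 with several symbols were not named, and 0 of these included a W gene of the list. RefSeq placed 26853 probe sets.

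The alternatives were quantile normalization, equal array medians, a floor of 32, log2(intensity + 16), a fit without a trend, a filter on a mean log2 of 5, a fit of the 2 groups compared, 1 probe set per gene, probe sets without a suffix for shared probes, each array left out in turn and the replicate number as a block. Columns of the authors' own comparisons were not used here.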

Additional observations from a re-analysis of the deposited data

Results flagged for a closer look

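For 9 W probe sets the limma contrast of 72 hrs against 48 hrs passed the adjusted threshold. This contrast rests on the 72 hr arrays that chose the genes, so the differences are a description and the calls carry no reading. The differences of 72 hrs minus 48 hrs were -7.37 for the bright HINTW probe set, -7.35, -6.33 and -5.89 for LOC374195, -6.16 for UBE2R2L, -5.50 for LOC430910, -5.23 and -4.62 for HNRNPKL and -4.28 for LOC107049459. For the dim HINTW probe set every 48 hr array lay above the control mean and every 72 hr array below it. Its difference of -1.62 did not pass the same contrast (adjusted p from limma 0.749). The opposite direction of the 2 times was not tested.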

How the results depend on the processing

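The size of the W differences at 72 hrs depended on the treatment of dim values. The median log2 fold change of -5.42 became -2.93 with a floor of 32, -3.69 with log2(intensity + 16) and -6.19 with 1 probe set per gene, with the sign kept in each; a floor or an added constant raises the dim 72 hr values by construction. The 10 W probe sets called at 72 hrs became 0 with the floor, 0 without a trend in the variance, 6 when only the 2 groups were fitted, and 0 to 7 when an array was left out, with 0 without either control array and 1 without either 72 hr array; the cause of the loss without a trend was not tested. Quantile normalization, equal array medians and the filter changed no call of the brightest probe set of the 8 genes. A fit without 1 array leaves a group with 1 array, which is assumed to vary like the others.

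Leaving out 1 array decided the sign at 48 hrs. The median W difference of -0.30 was -1.08 without 48 hr replicate 2 and 0.33 without 48 hr replicate 1. By gene the range was -0.51 to 0.31 for HINTW, -0.96 to 0.59 for HNRNPKL, -0.66 to 0.13 for LOC107049459, -1.41 to 0.39 for LOC374195, -1.15 to 0.17 for LOC430910, -0.84 to 0.50 for LOC431003, -1.22 to 0.62 for SPIN1L and -0.98 to 0.0863 for UBE2R2L. Among Z partners it was -0.0929 to 0.41 for BTF3, -0.0737 to 0.36 for TXNL1, -0.38 to 0.25 for HINT2 and -0.00747 to 0.23 for HNRNPK. At 72 hrs HINT2 ranged from -0.13 to 0.23, and was -0.0513 with equal array medians, while the median of the 20 Z partners ranged from 0.20 to 0.40.

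With the replicate number of the titles as a block, 12 W probe sets were called at 72 hrs, LOC431003 among them, and 0 at 48 hrs, and no Z partner was called. Over all probe sets the block raised the calls at 72 hrs from 16 to 22 lower and from 18 to 28 higher. The differences between replicates 1 and 2 correlated between groups at 0.29 to 0.57 over 9320 bright probe sets, but the source names number the arrays otherwise, so that the pairing was not used.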
